A study of Mus musculus with 4 samples.

Results

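Among the 174339 chromatin peaks of this series, 580 were open in many nuclei although they lay 5 to 100 kb from every closest gene entry of the count file. These regions were chosen by their detection share, the percentage of kept nuclei with at least 1 ATAC count in the peak, which had to reach 20% over 13619 nuclei. The distance was taken from the peak to the interval that the file gives for each gene. That interval lies at transcript starts of the gene and not over its body, and it misses some starts of the GENCODE annotation. In all, 8213 peaks reached the share, of which 7611 lay within 5 kb of a gene interval and 22 lay over 100 kb away. The 580 regions are called distal members below, and the 7611 are called near peaks. A further set for comparison was the 3946 peaks at 5 to 100 kb with a share of 10 to 20%, called less open distal peaks. The share chose the members, so it is given here only as a description. It reached 84.4%, with a median of 24.0%, and the distance had a median of 15499 bases.

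The nuclei came from Lin- cKit+ hematopoietic stem and progenitor cells (HSPCs) sorted from the bone marrow of 8-week-old male C57BL/6 mice, either unligated (Ctrl) or with silk ligatures on the molars for 14 days (Lig), with 5 mice pooled per group. Each group gave 1 gene expression and 1 ATAC sample from the same nuclei, so the 4 samples stand in 4 groups of 1. All counts were deposited in 1 matrix whose barcodes carry the suffix 1 or 2. No label ties a suffix to Ctrl or Lig, so the suffixes are called library 1 and library 2, no effect of ligation could be compared, and no test was run.

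Open chromatin is DNA that a transposase can reach, and each ATAC count is one end of a fragment that it cut. Promoters of widely used genes usually lie in CpG islands and are open in most cells. Enhancers lie farther from genes, are often poor in CpG, and are usually opened in some lineages and closed in others by factors such as PU.1, RUNX, GATA and C/EBP proteins in blood. CTCF, which marks loop anchors, binds largely the same sites in many cell types. Peaks that are open in many progenitors and yet far from a listed start are therefore a mixed class, in which unlisted promoters, insulator sites, widely used enhancers and repeated sequence can all appear.

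The central 300 bases of 8 members are shown, because the evenness and motif results below turn on them. All are on the + strand of GRCm38 (mm10), 5′ to 3′, and the capitals mark every match to 1 of the 17 searched motifs on either strand. The first 4 were uneven across progenitor classes: the region 19527 bases from E130008D07Rik (chr17:43138101-43138400), the one nearest Id1 (chr2:152741579-152741878), the one nearest 1700072O05Rik (chr6:120580101-120580400) and the one nearest Gm14321 (chr2:167753949-167754248). The next lies in an intron of Notch1 (chr2:26513366-26513665). The last 3 were among the most even: the regions nearest Commd8 (chr5:72203188-72203487), Myl3 (chr9:110781389-110781688) and Gm16863 (chr16:21333202-21333501).
E130008D07Rik region: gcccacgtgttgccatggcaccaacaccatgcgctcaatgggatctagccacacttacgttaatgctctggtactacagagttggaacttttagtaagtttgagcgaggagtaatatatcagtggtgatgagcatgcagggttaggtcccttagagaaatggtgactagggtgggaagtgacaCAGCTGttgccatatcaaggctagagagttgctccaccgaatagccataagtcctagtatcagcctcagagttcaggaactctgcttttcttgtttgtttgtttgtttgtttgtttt
Id1 region: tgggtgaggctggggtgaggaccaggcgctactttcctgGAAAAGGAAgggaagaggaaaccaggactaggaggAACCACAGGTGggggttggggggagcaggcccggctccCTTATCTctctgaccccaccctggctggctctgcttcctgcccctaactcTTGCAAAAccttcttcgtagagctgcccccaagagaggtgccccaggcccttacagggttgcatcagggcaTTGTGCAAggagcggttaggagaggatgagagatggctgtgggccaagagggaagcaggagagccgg
1700072O05Rik region: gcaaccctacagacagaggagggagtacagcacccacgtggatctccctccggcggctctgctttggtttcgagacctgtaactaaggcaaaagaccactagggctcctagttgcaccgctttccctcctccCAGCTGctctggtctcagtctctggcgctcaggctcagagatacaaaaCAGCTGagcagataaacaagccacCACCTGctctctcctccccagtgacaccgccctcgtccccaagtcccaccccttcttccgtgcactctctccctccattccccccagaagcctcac
Gm14321 region: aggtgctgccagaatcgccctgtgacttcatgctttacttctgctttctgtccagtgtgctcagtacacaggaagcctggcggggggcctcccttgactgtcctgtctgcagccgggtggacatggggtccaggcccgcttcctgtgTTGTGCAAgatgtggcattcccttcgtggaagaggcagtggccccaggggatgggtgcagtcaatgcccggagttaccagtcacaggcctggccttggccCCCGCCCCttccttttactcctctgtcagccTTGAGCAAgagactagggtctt
Notch1 intron region: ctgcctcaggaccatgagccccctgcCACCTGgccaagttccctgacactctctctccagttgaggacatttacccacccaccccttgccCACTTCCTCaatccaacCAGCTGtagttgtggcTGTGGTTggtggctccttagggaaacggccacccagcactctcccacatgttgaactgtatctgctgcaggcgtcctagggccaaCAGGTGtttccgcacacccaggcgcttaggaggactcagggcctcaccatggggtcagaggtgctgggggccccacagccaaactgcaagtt
Commd8 region: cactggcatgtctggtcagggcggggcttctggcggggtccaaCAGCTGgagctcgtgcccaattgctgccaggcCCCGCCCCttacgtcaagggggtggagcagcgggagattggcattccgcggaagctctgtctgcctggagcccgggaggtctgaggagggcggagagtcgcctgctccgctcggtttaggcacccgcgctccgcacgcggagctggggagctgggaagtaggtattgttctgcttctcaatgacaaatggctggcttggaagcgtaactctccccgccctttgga
Myl3 region: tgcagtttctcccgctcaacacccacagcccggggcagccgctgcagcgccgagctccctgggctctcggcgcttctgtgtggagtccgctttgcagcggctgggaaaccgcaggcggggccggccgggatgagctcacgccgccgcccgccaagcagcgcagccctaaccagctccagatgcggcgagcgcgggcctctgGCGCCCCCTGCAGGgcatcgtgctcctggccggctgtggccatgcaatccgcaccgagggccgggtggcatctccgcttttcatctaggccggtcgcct
Gm16863 region: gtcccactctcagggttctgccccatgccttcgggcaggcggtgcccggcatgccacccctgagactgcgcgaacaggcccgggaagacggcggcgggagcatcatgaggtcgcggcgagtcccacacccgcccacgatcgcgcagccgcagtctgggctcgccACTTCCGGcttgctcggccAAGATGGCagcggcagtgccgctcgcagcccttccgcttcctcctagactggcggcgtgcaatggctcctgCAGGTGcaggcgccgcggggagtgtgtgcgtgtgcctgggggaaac

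The capitals in the Id1 region are an ISRE, a RUNX match that overlaps an E-box, a GATA match and 2 C/EBP matches. Those in the 1700072O05Rik region are 3 E-boxes, and those in the Gm14321 region are 2 C/EBP matches and a GC box. The Myl3 region holds only a CTCF core match, and the Gm16863 region holds an ETS, a YY1 and an E-box match, on sequence that overlaps an exon of Magef1.

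Library 1 gave 5905 kept nuclei with a median of 19471 peak counts, and library 2 gave 7714 with a median of 16284. Of the kept barcode sequences, 72 occurred in both libraries. Clustering without the widely open peaks gave 10 progenitor classes of over 100 nuclei that were named from lists of marker genes, with 6343 nuclei (46.6%). They were HSC-like, GMP-like, NeuP-like (neutrophil), cMoP-like (monocyte), cDCP-like (dendritic), BaP-like (basophil), EryP-like (erythroid), MkP-like (megakaryocyte), pro-NK/T-like and pro-B-like nuclei. The sort should have removed cells with lineage markers, but summed plasma cell markers reached 163 UMI CPM (UMIs scaled to a common RNA total) in pro-B-like nuclei and macrophage markers 64.1 in cMoP-like nuclei. Endothelial markers ran from 64.5 in EryP-like to 223 in pro-NK/T-like nuclei. The part of other cell types in the values below was not tested. Class sizes ran from 177 cMoP-like to 1451 GMP-like nuclei, and the unnamed nuclei (52.8%) counted toward the share but not toward the class values.

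The distal members were less even across the 10 classes than the near peaks. The less open distal peaks, which differ from the members by the share that chose them, were less even still, and since a high share over all nuclei itself limits how uneven a peak can be, that difference is a description. Evenness is given as the ratio of the highest to the lowest class in ATAC CPM, the counts in a peak scaled to a common total of peak counts per class. The median ratio was 2.43 over the 580 members, 1.71 over the near peaks and 4.98 over the less open distal peaks. A ratio of 2 or more was found in 379 members, or 65.3% (95% exact binomial interval 61.3 to 69.2, counting error only), against 57.2% of the 18786 peaks with a share of 10% or more. Among near peaks the same share was 21.7%, and among less open distal peaks it was 89.8%. The exact Poisson intervals of the highest and the lowest class stood apart in all 379 of these members, 65.3% of the 580. Over those 18786 peaks, 10740 had a ratio of 2 or more, and the intervals stood apart in 10399 of them, 55.4% of the 18786. Standing apart bears on a ratio above 1 and not on a ratio of 2. The interval of the ratio itself, with every cut end taken as independent, lay wholly above 2 in 283 members and above 1 in all 580. Most ends come in pairs, so the ratio intervals here and below are too narrow. Both counts are thus upper limits. The highest and lowest of 10 classes are picked from the same counts, so that part of every ratio is counting error. A coefficient of variation over the classes with the Poisson part removed had a median of 0.258 in members and 0.148 in near peaks.

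**Figure D1:**
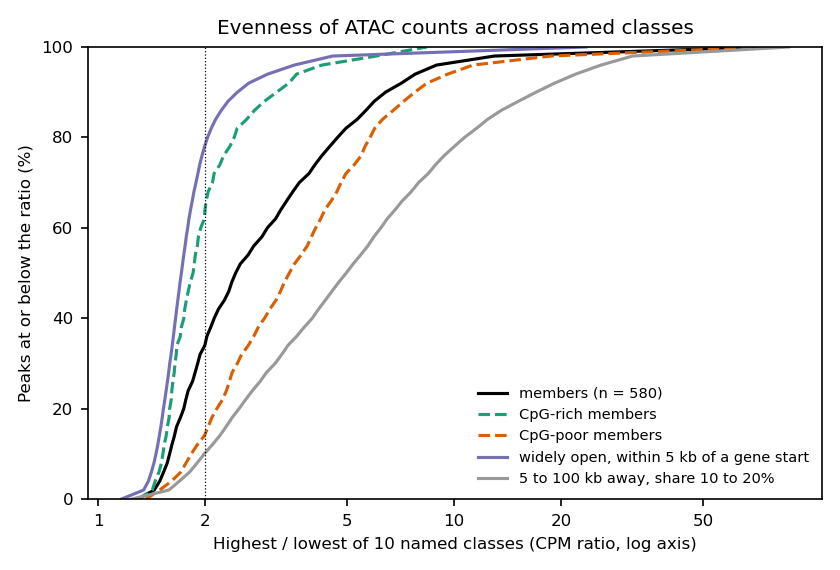
Cumulative percentage of peaks (y axis) at or below each ratio of highest to lowest named class in CPM (x axis, log scale), for the 580 members, for CpG-rich and CpG-poor members, for near peaks and for distal peaks with a share of 10 to 20%. Beyond the dotted line at 2 lie 34.9% of CpG-rich members, 85.6% of CpG-poor members, 21.7% of near peaks and 89.8% of less open distal peaks.

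Each class held a similar part of its counts in the members as a group, between 2.16% in cDCP-like and 2.52% in pro-NK/T-like nuclei. To remove depth, each nucleus was thinned to 5000 peak counts, leaving out 2487 shallower nuclei (1144 of library 1 and 1343 of library 2). The median member was then open in 12.2% of EryP-like to 13.9% of pro-B-like nuclei, and without thinning in 20.3% of NeuP-like to 28.2% of pro-B-like nuclei. These shares are the quantity that chose the members and are given as a description. NeuP-like nuclei were the highest class for 144 members and pro-NK/T-like nuclei for 111, whereas GMP-like nuclei were the highest for 10 and the lowest for 86. Near peaks leaned the same way, with median ratios to the other classes of 1.21 in NeuP-like, 1.18 in pro-NK/T-like and 0.839 in GMP-like nuclei, against 1.11, 1.10 and 0.929 in members, so this order is not particular to the members. Against the median of the other classes, pro-NK/T-like and EryP-like nuclei most often fell 2-fold or more below (79 and 76 members, 13.6% and 13.1%, against 1.14% and 0.749% of near peaks), and NeuP-like and cMoP-like nuclei most often stood 2-fold or more above (34 members or 5.86% each, against 0.946% and 0.499% of near peaks). In 332 members (57.2%) no class departed 2-fold from the median of the others, in 116 a single class did, and in 76 at least 3 did. No class departed in 92.7% of near peaks and in 25.8% of less open distal peaks.

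Pooling the classes into 4 lineages (stem-like; erythroid and megakaryocyte; myeloid; lymphoid) left 165 members (28.4%, interval 24.8 to 32.3) with a ratio of 2 or more, against 2.93% of near peaks and 56.99% of less open distal peaks. Of these 165 members, 64 were highest in the myeloid lineage, 48 in the lymphoid, 39 in HSC-like nuclei and 14 in the erythroid and megakaryocyte lineage. Regions open mainly in a rare class could hardly reach a share of 20% (EryP-like and MkP-like classes held 746 and 288 nuclei), so this tally describes the members and does not compare the lineages. Both the lineage grouping and the CpG split that follows were chosen after the data were seen.

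Evenness went with CpG content. CpG-rich members, with an observed to expected CpG ratio of at least 0.6 in the central 300 bases, numbered 232 of the 580 (36.0 to 44.1%), compared with 90.6% of near peaks, 10.3% of less open distal peaks and 9.99% of all peaks. A class ratio of 2 or more was found in 81 CpG-rich members (34.9%, interval 28.8 to 41.4) and in 298 of 348 CpG-poor members (85.6%, 81.5 to 89.1). The median ratios were 1.85 and 3.44. At the level of lineages, 10 CpG-rich members (4.31%) and 155 CpG-poor members (44.5%) were at 2 or more. Over all members, higher shares also went with lower ratios. The ratio reached 2 in 75.9% of members with a share of 20 to 25% and in 34.6% of those above 40%. CpG-rich members made up 26.8% and 88.5% of these bands. In the bands of 20 to 25, 25 to 30, 30 to 40 and above 40%, CpG-rich members reached it in 37.4%, 31.1%, 35.1% and 34.8%. CpG-poor members reached it in 89.96%, 80%, 65.4% and 33.3% (1 of 3). Within the share band of 20 to 25%, 37.4% of CpG-rich members (27.4 to 48.1) and 35.8% of CpG-rich near peaks (33.5 to 38.1) reached a ratio of 2, values that lie within each other's intervals. In the same band CpG-poor members reached it in 89.96% (85.5 to 93.4) and CpG-poor near peaks in 68.2% (63.2 to 72.8), intervals that do not overlap. In the band of 30 to 40%, CpG-rich members stood at 35.1% (22.9 to 48.9) and CpG-rich near peaks at 10.8% (9.62 to 12.1).

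**Figure D2:**
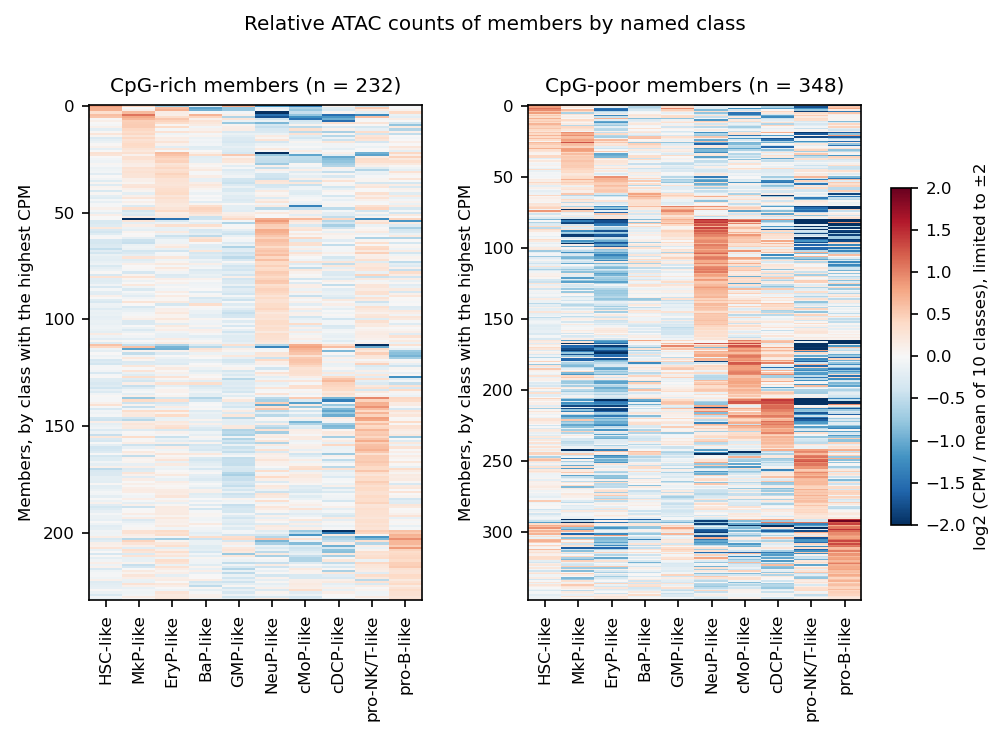
Each row is 1 member and each column 1 named class. Color gives the log2 ratio of the class CPM to the mean of the 10 classes, limited to 2 in either direction, with members ordered by their highest class. CpG-rich members (left, n = 232) are mostly pale, and CpG-poor members (right, n = 348) that were highest in NeuP-like, cMoP-like or cDCP-like nuclei show low values in the erythroid, megakaryocyte and lymphoid classes.

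The CpG-poor members with a ratio of 2 or more fell into groups by their highest class. A group of 160 members was highest in one of the 5 myeloid classes (GMP-, NeuP-, BaP-, cDCP- and cMoP-like), so its size partly follows from the number of classes pooled. Its median CPM was 44.7 in NeuP-like, 38.7 in cMoP-like and 34.9 in cDCP-like nuclei, 28.9 in HSC-like nuclei, and 17.5 in EryP-like, 21.2 in pro-NK/T-like and 21.2 in pro-B-like nuclei. In these members, the class at or under 50% of the 10-class mean was most often pro-NK/T-like (54 members), EryP-like (51), pro-B-like (41) or MkP-like (35), and in none was it GMP-like or HSC-like. The 89 members highest in a lymphoid class had median CPMs of 42.9 in pro-B-like and 37.0 in pro-NK/T-like nuclei, 31.5 in HSC-like nuclei and 24.0 in NeuP-like nuclei. The 32 members highest in EryP-like or MkP-like nuclei had 38.12 and 45.02 there, 35.7 in HSC-like nuclei and 21.2 in NeuP-like nuclei. HSC-like nuclei were thus between the highest and the lowest median in these 3 groups, as were other classes, GMP-like and BaP-like among them. HSC-like nuclei were the lowest class for 15 of the 580 members, BaP-like nuclei for 16 and GMP-like nuclei for 86. Since the groups were formed from the highest class, these medians are a description.

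Single members show the size of the differences. The region near E130008D07Rik had the highest ratio. It had 83.7 CPM in NeuP-like nuclei, 55.0 in cMoP-like, 53.9 in cDCP-like, 47.0 in GMP-like, 15.9 in BaP-like, 15.6 in HSC-like, 6.26 in EryP-like, 5.38 in pro-NK/T-like, 3.45 in MkP-like and 1.12 in pro-B-like nuclei. It was highest in the neutrophil, monocyte, dendritic and GMP-like classes, at the HSC-like level in BaP-like nuclei and nearly closed in pro-B-like nuclei, with a ratio of 74.8 (exact interval on the pair of counts 50.1 to 117).

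The region 20394 bases upstream of Ppp1r21 followed, at 42.9 CPM in cDCP-like and 38.7 in cMoP-like nuclei. Its lowest value, in pro-NK/T-like nuclei, rested on 2 counts, so that its ratio of 39.8 has an interval of 16.2 to 499. It was the only member with 3 or fewer counts in its lowest class. The region assigned to Tm9sf3 lies in an intron of Pik3ap1, the adaptor of phosphoinositide 3-kinase in immune cells. It had 48.2 CPM in cMoP-like, 41.1 in BaP-like, 1.84 in pro-B-like and 3.95 in pro-NK/T-like nuclei. The regions near Ppp1r26 and in an intron of Prr5l had ratios of 25.5 and 21.6, each with the highest value in cDCP-like nuclei (54.9 and 54.2 CPM) and the lowest in pro-NK/T-like nuclei (2.15 and 2.51). All 5 members at this end were lowest in a lymphoid class and highest in a dendritic, monocyte or neutrophil class. They had shares of 20.7 to 22.7%, near the limit of the rule. The share is taken over all nuclei, unnamed ones included, and an uneven region reaches 20% more easily when it is open in numerous nuclei. The part of the rule in the direction that these 5 have in common was not tested.

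**Figure D3:**
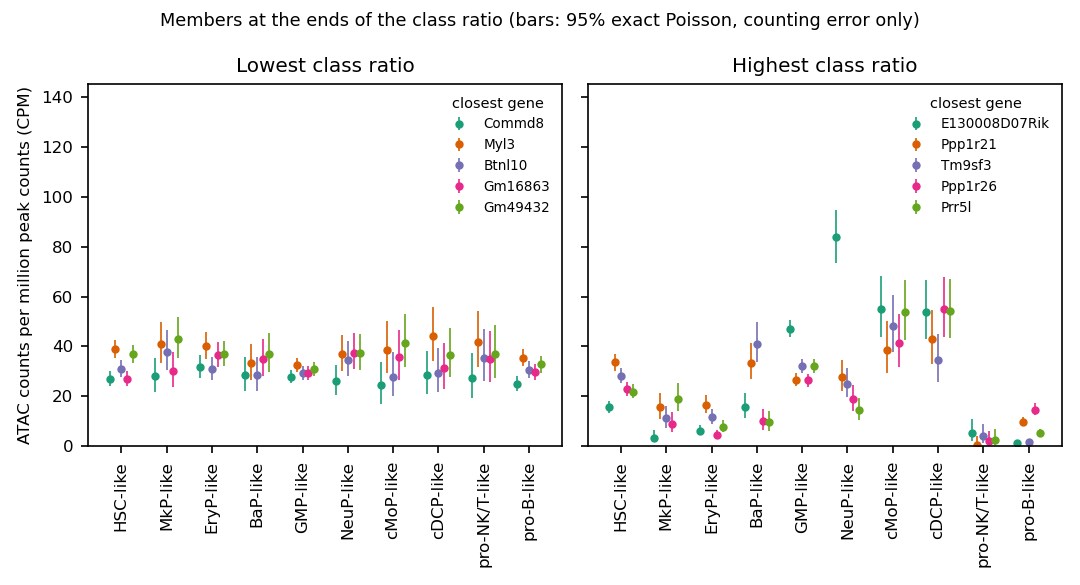
ATAC CPM (y axis, linear from 0) in each of the 10 named classes for the 5 members with the lowest class ratio (left) and the 5 with the highest (right), with 95% exact Poisson intervals as bars. The even members lie between 24.4 and 44.2 CPM in every class, and the uneven ones run from 0.717 to 83.7 CPM.

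At the even end, the region assigned to Commd8 had 24.4 CPM in cMoP-like and 31.6 in EryP-like nuclei, the lowest and the highest of the 10 classes. The ratio was 1.29 (interval 1.003 to 1.69, with ends taken as independent). With the Poisson part removed on pairs of ends, its coefficient of variation over the classes was 0. The Commd8 region overlaps an exon and a transcript start that the GENCODE annotation gives for Atp10d, 34705 bases from the Commd8 interval. The region near Myl3, a myosin light chain of heart and slow muscle whose own RNA was at 0.511 UMI CPM here, had 32.5 CPM in GMP-like and 44.2 in cDCP-like nuclei (ratio 1.36). The members near Btnl10, Gm16863 and Gm49432 had ratios of 1.36, 1.39 and 1.39, with the highest class in MkP-like, NeuP-like and MkP-like nuclei. In 4 of these 5 even members the central sequence was CpG rich, the exception being the Btnl10 region (observed to expected CpG 0.321).

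For single classes, the member that stood out most against the median of the other classes was as follows. For pro-B-like nuclei it was the 1700072O05Rik region, with 85.3 CPM against a median of 15.4, on an annotated start of the unclassified transcript Gm44124. For HSC-like and for EryP-like nuclei it was the same region upstream of 8430430B14Rik, at 49.4 and 38.5 CPM, with 43.4 in MkP-like, 33.1 in GMP-like, 23.1 in BaP-like and 6.96 in NeuP-like nuclei. For GMP-like and BaP-like nuclei it was the Id1 region (52.0 and 39.7 CPM, with 48.6 in NeuP-like and 5.37 in pro-B-like nuclei). An intron of A630001O12Rik held 52.7 CPM in pro-NK/T-like, 60.2 in pro-B-like and 52.0 in cDCP-like nuclei, and was lowest in MkP-like nuclei (5.88). The Dppa3 region was high in cDCP-like (49.4) and cMoP-like (47.5) nuclei. The Gm14321 region, with 2 C/EBP matches, was high in cMoP-like (69.9) and NeuP-like (73.9) nuclei.

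The label of these peaks as lying away from promoters held only in part. Against every transcript start of the GENCODE M21 annotation of the same build, 119 members (20.5%) lay within 1 kb of a start, 72 lay at 1 to 5 kb and 389 lay over 5 kb away. The share within 1 kb was 19.9% over all peaks, close to that of the members, 96.8% over near peaks and 11.6% over less open distal peaks. Of the 119, 68 were near a start of a protein-coding gene, 13 near a TEC (a transcript class still awaiting experiments), 7 near an snRNA and 6 near a miRNA. For 66 of the 119 the start belonged to a gene of the count file, and for 34 to the closest gene itself. The intervals of the file thus left out starts of listed genes. CpG-rich sequence was found in 55.5% of the 119 (46.1 to 64.6) and in 36.2% of the 389 (31.5 to 41.2). A class ratio of 2 or more was found in 53.8% of the 119 (44.4 to 63.0), in 54 of the 72 at 1 to 5 kb (63.4 to 84.5%) and in 67.1% of the 389 (62.2 to 71.7), with no steady rise with distance. Examples are the Commd8 region on Atp10d, the Gm16863 region on Magef1, and the region 6354 bases from Rps28, which overlaps an exon of Kank3. By its center, a member lay in an exon in 12.8%, in an intron in 32.2% and between genes in 55.0%. Members became rarer with distance, from 0.869% of all peaks at 5 to 10 kb to 0.205% at 50 to 100 kb.

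The members held a mixture of promoter-type and enhancer-type motifs. For factors of blood lineages the letters were GAGGAAGTG for PU.1, TGTGGTT for RUNX proteins, TTGCNNAA for C/EBP proteins and AGATAAG for GATA proteins. E-boxes were sought as CAGCTG, a palindrome that counts once, and, as a separate motif bound by E proteins, in the form CAGGTG. Stress and interferon signaling was represented by TGANTCA for AP-1, GAAANNGAA for the ISRE and GGAANTGAA for an ETS-IRF composite. Motifs common at promoters were CCGGAAGT for ETS, CGCATGCGC for NRF1, AAGATGGC for YY1, TGACGTCA for the CRE, GGGGCGGG for the GC box, TTCCCGCC for E2F and, in the same class, CCAATCA for NFY. The CTCF core was the last of the 17. They were sought on both strands of the central 300 bases. E2F and GC box matches can overlap, as can ISRE and ETS-IRF matches.

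RUNX matches lay in 13.4% of members (10.8 to 16.5), 3.04% of near peaks, 16.3% of less open distal peaks and 12.03% of all peaks. AP-1 matches lay in 11.9%, 3.21%, 15.1% and 11.4%, and PU.1 matches in 5.69%, 1.76%, 7.37% and 4.78%. For these 3 motifs the members were thus nearer the distal background than the near peaks. The GC box, a promoter element bound by SP factors, was in 16.03% of members against 38.4% of near peaks and 5.02% of all peaks. The ETS motif was in 2.59% against 9.68% and 1.12%, and YY1 in 1.72% against 6.69% and 2.14%. CTCF core matches were in 4.66% of members (3.09 to 6.70), 2.04% of near peaks, 6.72% of less open distal peaks and 3.55% of all peaks. CRE matches, bound by CREB and ATF factors, were in 3.10%, 4.32%, 0.887% and 0.615%. C/EBP matches were in 14.1% of members and 14.2% of all peaks, and CAGCTG in 24.1% and 19.7%. Remaining motifs were GATA (2.93% of members, 4.06% of all peaks), CAGGTG (17.4% and 19.4%), NRF1 (2.07% and 0.382%), ISRE (8.28% and 11.03%), the ETS-IRF composite (3.79% and 5.76%), NFY (6.03% and 3.84%) and E2F (2.93% and 0.803%). No motif was found in 115 members (19.8%), 21.4% of near peaks and 20.1% of less open distal peaks.

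Motif shares differed between CpG-rich and CpG-poor members. RUNX was in 18.7% of CpG-poor (14.7 to 23.2) and 5.603% of CpG-rich members (3.02 to 9.39), AP-1 in 16.7% and 4.74%, and CAGCTG in 29.9% and 15.5%. GC boxes were in 8.33% of CpG-poor and 27.6% of CpG-rich members. The split and the motifs used the same central bases. The letters of the GC box contain a CpG and those of RUNX, AP-1 and CAGCTG contain none. Part of these differences is thus built into the split, and how large that part is was not tested. Among CpG-poor members with a ratio of 2 or more, C/EBP was in 40 of the 160 highest in a myeloid class (18.5 to 32.4), in 12.4% of the 89 highest in a lymphoid class (6.33 to 21.04) and in 9.38% of the 32 highest in EryP-like or MkP-like nuclei (1.98 to 25.02). Of the E-box forms, CAGGTG was in 31.5% of the lymphoid group (22.03 to 42.2) and 16.9% of the myeloid group (11.4 to 23.6). CAGCTG differed less, at 36.0% of the lymphoid group (26.1 to 46.8) and 29.4% of the myeloid group (22.4 to 37.1). GATA was in 4 of the 32 erythroid and megakaryocyte members (12.5%, 3.51 to 29.0), in 3.13% of the myeloid group and in 2.25% of the lymphoid group. PU.1 was in 9.38% of the myeloid group, 8.99% of the lymphoid group and 3.13% of the erythroid and megakaryocyte group, and RUNX in 21.9%, 16.9% and 12.5%. Of the 17 members highest in HSC-like nuclei, 2 held a C/EBP match, 3 held CAGGTG, 3 held RUNX, and none held GATA or PU.1, each of which allows a share of up to 19.5%. The intervals of each motif overlap between the groups. No motif of the 17 in a window says that a factor is bound there.

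**Figure D4:**
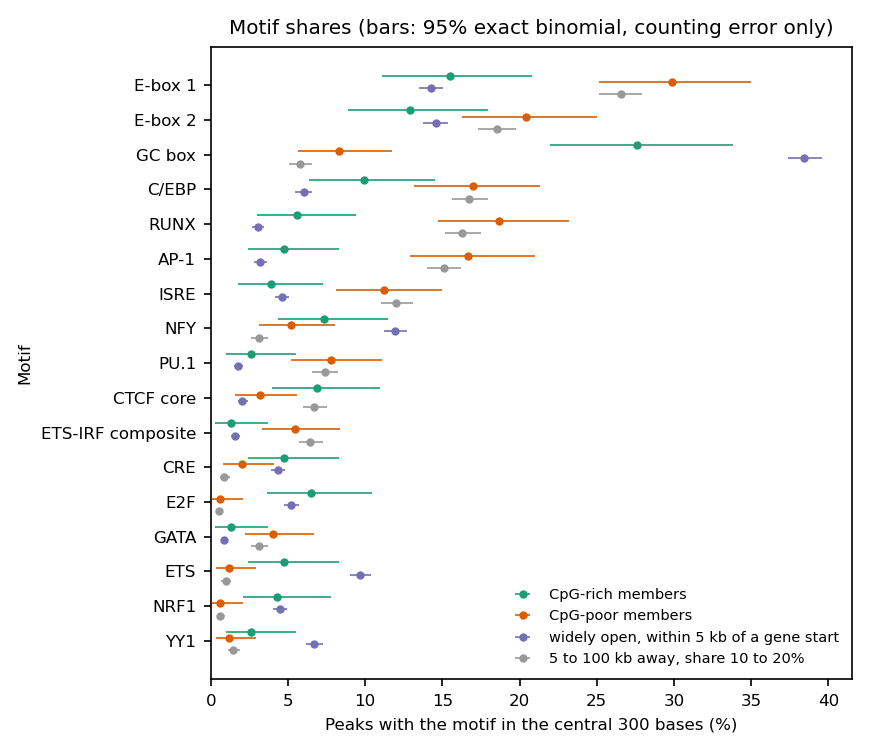
Percentage of peaks (x axis) with each motif (y axis) in the central 300 bases, with 95% exact binomial intervals, for CpG-rich members, CpG-poor members, near peaks and distal peaks with a share of 10 to 20%. E-box 1 is the palindrome with a central GC and E-box 2 the other form; CpG-poor members lie near the less open distal peaks for RUNX and AP-1, and the GC box is highest in near peaks.

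The closest genes of the 580 members were 527 genes, of which 41 were closest to 2 or more and 11 to at least 3. Most are named because a member happened to be nearest to them, and a nearest gene is not shown to be a target. Klrb1c, an NK-cell receptor gene and a marker of pro-NK/T-like nuclei, had 4 members at 10501 to 27436 bases. All were CpG rich with ratios of 1.59 to 1.86. Klrb1c RNA was at 151 UMI CPM in pro-NK/T-like nuclei and at 4.35 over all nuclei, so these regions were even where the gene was not. In the search for copies, 2 of these regions were found to match another place in the genome. Of the 10 genes with 3 members, those around Lrrc8d, a subunit of volume-regulated anion channels, had ratios of 1.86, 2.64 and 8.36, the last highest in pro-B-like nuclei. In introns of Itpkb, an inositol trisphosphate kinase of lymphocytes, the ratios were 1.49, 1.78 and 4.52, the last highest in pro-NK/T-like nuclei. Around Grk2, a kinase that desensitizes G protein-coupled receptors, they were 2.05, 2.18 and 3.25. Around A630001O12Rik, neighbors 1233 bases apart were opposite, since one was highest in pro-B-like nuclei (ratio 10.2) and the other was lowest there (ratio 8.45). The members near Gm17749 had ratios of 7.22, 3.85 and 2.33. By contrast, all 3 members near Tex44 (1.67, 1.74 and 1.90) and all 3 near Shf (1.57, 1.71 and 1.78) were under 2, although their highest classes differed within each gene. In all, 57 members had another within 10 kb.

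Some members were closest to genes of blood-related or housekeeping lists. A member was nearest to 5 of 66 blood transcription factor genes (7.58%), 4 of 33 receptor and surface protein genes (12.1%), 2 of 18 housekeeping genes (11.1%), 2 of 97 genes of the ribosomal protein list (2.06%) and 3 of 115 class markers (2.61%), against 1.64% of all gene rows. The exact intervals are wide, 2.51 to 16.8% for the transcription factors and 3.40 to 28.2% for the receptors, and genes differ in how much peak-bearing sequence surrounds them. Less open distal peaks were nearest to 37.9% of the transcription factors and 33.3% of the receptors, against 9.38% of all gene rows. Near peaks were nearest to 63.6% and 51.5%, against 26.7%. For these lists the higher shares are thus not particular to the members.

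Among the transcription factors, Notch1, the receptor whose cleaved form drives T-lineage fate, had 2 members in its introns. The one 9238 bases from the start interval, whose sequence is printed above and which lay 2692 bases from another annotated Notch1 start, had 42.04 CPM in pro-B-like, 37.4 in HSC-like, 34.3 in GMP-like, 24.7 in cDCP-like, 13.4 in NeuP-like, 11.8 in MkP-like, 11.6 in BaP-like, 10.9 in cMoP-like, 8.87 in EryP-like and 5.02 in pro-NK/T-like nuclei. The other, 19802 bases downstream, was highest in cMoP-like nuclei (56.0 CPM) and also lowest in pro-NK/T-like nuclei (10.8). The members of the same gene thus shared their lowest class and not their highest.

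Mef2c, a factor of lymphoid and myeloid progenitors, had an intronic member with 43.8 CPM in NeuP-like, 42.9 in cDCP-like, 9.21 in EryP-like and 6.89 in MkP-like nuclei. Tcf12, an E protein that partners in B- and T-cell development, had a CpG-rich member 20970 bases upstream, at 53.2 CPM in pro-B-like and 17.8 in NeuP-like nuclei. Its RNA was also highest in pro-B-like nuclei, at 621 UMI CPM. Runx3, a factor of cytotoxic lymphocytes, had 2 members downstream, at 50526 and 53452 bases. The nearer had 49.2 CPM in cMoP-like, 39.5 in pro-NK/T-like and 14.6 in MkP-like nuclei (ratio 3.37), and the farther had a ratio of 1.79. Runx3 RNA was highest in pro-NK/T-like nuclei (230.2 UMI CPM). The Id1 region lay 5022 bases from Id1, an inhibitor of E proteins, just past the distance limit. Id1 RNA itself was at 8.01 UMI CPM at most.

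Among receptors, Ifnar2, a chain of the type I interferon receptor, had 2 members upstream. The one at 17096 bases had 50.02 CPM in cDCP-like, 47.7 in NeuP-like, 40.1 in cMoP-like, 12.6 in pro-NK/T-like and 9.09 in pro-B-like nuclei. The one at 5317 bases had 71.3 in NeuP-like, 44.7 in HSC-like and 18.5 in pro-B-like nuclei. Both were lowest in pro-B-like nuclei. Cd44, the hyaluronan receptor, had a member with 56.4 CPM in NeuP-like and 8.25 in pro-NK/T-like nuclei. By contrast, the members of Cxcr4, the receptor that holds progenitors in the marrow, and of Ptprc, which encodes CD45, had ratios of 1.90 and 1.92. Actb, the housekeeping gene of beta-actin, had a member with a ratio of 2.05, at 61.7 CPM in NeuP-like and 30.1 in pro-B-like nuclei. The ribosomal list matched Rps28 and Rps6ka1, which is a kinase gene and no ribosomal protein gene, with ratios of 1.88 and 1.497. The region assigned to Cr2, a complement receptor of B cells, was open in 51.8% of nuclei and had 172 CPM in pro-B-like, 161 in pro-NK/T-like and 28.3 in cDCP-like nuclei, while Cr2 RNA was at 0.767 UMI CPM over all nuclei. It lies 229 bases from the start of Gm27940, a small noncoding RNA gene, and matches another place in the genome.

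RNA of the closest gene followed the member weakly across classes. Over 413 members whose gene reached 1 UMI CPM, the correlation across the 10 classes (Pearson on log2 of CPM plus 1) had a median of 0.16 with quartiles of -0.15 and 0.44, and 80 (19.4%) were above 0.5. Over all peaks the median was 0.15 with 18.8% above 0.5, over near peaks 0.12 with 17.9%, and over less open distal peaks 0.17 with 21.9%, so the members were near the background. The 10 points share libraries and depth, so the values are descriptions. The highest were at Spaca6 (r = 0.91) and Tcf12 (r = 0.89), followed by Mapkapk3 (0.85), a stress-activated kinase, and Utp18 (0.84). The lowest were at 1810024B03Rik (r = -0.74) and Gm16863 (r = -0.71). Over all nuclei, RNA was at 4.09 UMI CPM for Spaca6, 11.7 for 1810024B03Rik and 1.45 for Gm16863, against 368 for Tcf12. The values at Spaca6 and Gm16863 thus rest on few UMIs per class. The closest gene of 46 members was listed at 0 UMIs.

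A few members of very high share also held many counts per nucleus. The median member gave 2.41 counts in a nucleus where it was open, and even counts made up 86.97% of their nonzero entries. Only 10 members had 4 or more counts. The region near Gm11670 was open in 84.4% of nuclei with 11.7 counts each, that near Gtpbp4 in 82.2% with 9.61, that in an intron of Cdk8 in 77.6% with 7.97, that near Gm20546 in 77.5% with 7.95, and that near Gm37350 in 73.9% with 6.87. All 5 were lowest in cDCP-like nuclei and highest in one of the lymphoid classes, with ratios of 2.29 to 3.43. Their median of 7.97 counts was below that of the 5 near peaks with a share of 70 to 100% (25.2, from 7.52 to 34.4), so high counts at high share were not particular to the members. The Cdk8 row was also at 22225 UMI CPM of RNA, and 63.5% of the Gtpbp4 region was masked as repeat in the reference. The regions near Txndc11 and Gm21060, open in 57.9% and 59.9%, were also lowest in cDCP-like nuclei. The other 3 members, near Col19a1, Gad2 and Ccnh, matched the mitochondrial genome at 99.9%, 98.0% and 95.2% identity and had 10.2, 8.58 and 5.99 counts per open nucleus at shares of 38.5%, 34.7% and 23.2%. All 3 were highest in HSC-like nuclei. Another place in the genome matched 21 members, and 23 had either kind of match. Without these 23, a class ratio of 2 or more was found in 66.1% of 557 members. The search covered assembled chromosomes and the mitochondrial genome, so copies in unassembled sequence could not be found. On the chromosomes a match also had to start from 64 identical bases outside masked repeats. Diverged copies and copies of masked sequence could thus be missed, and the members left may still hold repeated sequence. Of the 5 members of highest share, only the Gm37350 region was among the 23. Whether the counts of the others, and their order of classes, come from repeated sequence was not tested.

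**Figure D5:**
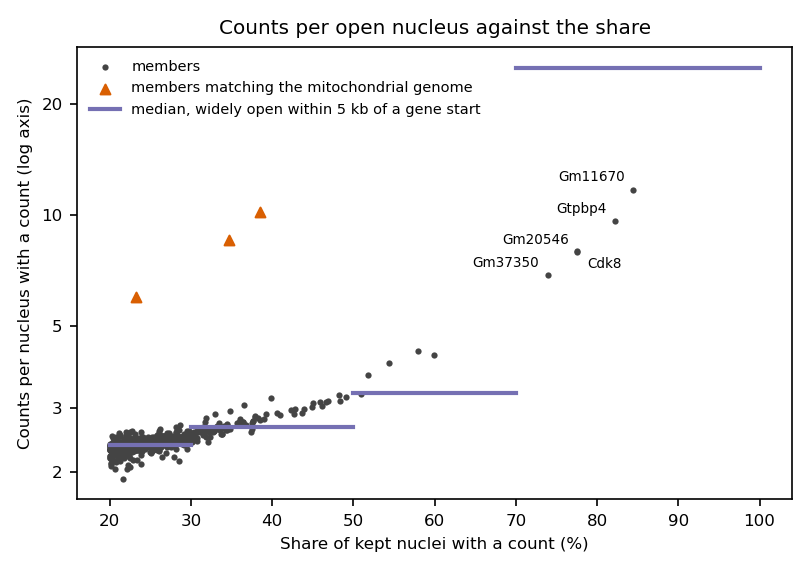
ATAC counts per nucleus with a count (y axis, log scale) against the share of kept nuclei with a count (x axis, percent), 1 point per member, with triangles for members that match the mitochondrial genome and lines for the median of near peaks in each band of share (5 near peaks in the band from 70 to 100%). Members between 20 and 30% have a median of 2.38 counts, the same as near peaks, and the 5 labelled members reach 6.87 to 11.7, against a median of 25.2 for the near peaks of their band.

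Over all nuclei, library 1 and library 2 gave values within 1.5-fold of each other for all members but 1. The ratio of library 2 to library 1 in CPM had a median of 0.964 and ran from 0.624 to 1.33. No member was 1.5-fold or more higher in library 2, against 0.0532% of the 18786 peaks, and 1 (0.172%) was so in library 1, against 0.298%. That member was the 1700072O05Rik region, at 34.8 CPM in library 1 and 21.7 in library 2. It was highest in pro-B-like nuclei, of which library 1 held 767 and library 2 held 359. Within pro-B-like nuclei it had 87.3 and 79.8 CPM, and within pro-NK/T-like nuclei 23.2 and 9.40. Only in MkP-like (12.7 and 17.6) and cDCP-like nuclei (12.5 and 14.8) was it higher in library 2. The next regions on this side, by Tedc1 (0.744) and in A630001O12Rik (0.767), were also highest in pro-B-like nuclei. So was the region with the highest ratio of library 2 to library 1, near Mex3c (42.5 CPM), which overlaps the annotated rRNA gene n-R5-8s1. On that side stood regions by Mex3c (1.33), Sp3os (1.30) and Pde4b (1.29). Within single classes the libraries differed more, since the Mex3c region had 22.1 and 46.2 CPM in GMP-like nuclei of library 1 and library 2 (ratio 2.09) and 9.91 and 26.2 in NeuP-like nuclei (2.64). The Sp3os region had 30.3 and 55.8 in GMP-like nuclei (1.84), and the Pde4b region had 2.82 and 8.12 in pro-B-like nuclei (2.88) but 66.2 and 43.6 in NeuP-like nuclei. Since neither library is tied to Ctrl or Lig, nothing on ligation can be read from these values.

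The limits of the rule passed through neighbors with similar values. A region by Gm48812 entered with a share of 20.0015%, and one by Tbc1d10a at 19.9941% did not. The Id1 region entered at 5022 bases, and a region at 4967 bases from Ano9 counted as near. At the far limit, a region at 99471 bases from Acoxl was kept, and one at 108818 bases from Gm32479 was not.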

How the data were processed

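Nuclei of sorted HSPCs were profiled by 10x Multiome, which reads RNA and open chromatin from the same nucleus. The authors aligned reads to GRCm38 (mm10) and called peaks with Cell Ranger ARC 2.0.0, and deposited raw counts, as UMIs per gene and transposase cut ends per peak, in 1 pooled matrix. The authors' own clusters are not used here. Barcodes with 200 or more genes and 1000 to 50000 peak counts were kept (13619 of 18961). Every column used belongs to the pooled matrix, and the barcode suffix is tied to no sample, so no groups were compared.

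From these counts, nuclei were clustered with Seurat 5.3.0 (R 4.3.3) on RNA and on ATAC without the widely open peaks, at a resolution of 0.8. Clusters were named from marker lists, and the rule for scoring them was completed after marker tables were viewed. Members, lists and splits were chosen with earlier results of these data known. Gm42418, Gm26917 and AY036118 were left out of RNA totals. Free RNA was not removed and no doublet caller was run; leaving out the 1089 nuclei with most peak counts (8% of each library) was an added alternative. Shares carry exact binomial, CPM exact Poisson intervals, at 95%, for counting error only, since cut ends of 1 fragment and nuclei of 1 pool are not independent. Repeated members were found with BLAST 2.17.0 (identity 90% or more over 50% or more of the region). Sequence and transcript starts came from mm10 and GENCODE M21. Named regions were the 5 members at either end of the ratio, the leader of each class, genes with most members and genes of the lists; others named for their counts or correlations, and Shf and Tex44, were chosen after their values were seen. Some regions that this rule names are not reported here. Scripts (Python 3.11.15, numpy 2.4.6, scipy 1.17.1) were tested on simulated data.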

Additional observations from a re-analysis of the deposited data

How the results depend on the processing

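No paired analysis was possible because the samples stand in groups of 1 and no test was run. The number of members, 580, moved with the rule: 1554 at a share of 15%, 240 at 25%, 924 with peak counts halved and 998 over nuclei with 500 or more genes. The share of members with a class ratio of 2 or more, 65.3%, was 57.9% with clusters from RNA alone, 73.4% over every cluster of 100 or more nuclei, 75.7% in library 1, 70% in library 2, 70.7% without the 8% of nuclei with most peak counts and 28.4% over 4 lineages. Among CpG-poor members it was 76.2% with the CpG limit at 0.75. The last 3 alternatives were chosen after seeing the data. The share of members at least 1.5-fold higher in library 1, 0.172%, was 0 as a mean over classes. Counting any overlap put 28.1% of members on an exon, 23.1% in an intron and 48.8% between genes. Of 276 values recomputed for 46 named regions, 257 stayed within their counting interval and 260 on the same side of 2. Of 34 motif shares recomputed in central windows of 200 and 500 bases, only 15 stayed within their interval, while in each window 10 of 17 motifs were held by a larger share of members than of near peaks.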
